A study of Mus musculus with 6 samples.

Results

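The 9 genes described here mark cellular senescence and the p53 response: Cdkn1a, Cdkn2a, Cdkn2b, Cdkn1b, Cdkn2c, Trp53, Mdm2, Gdf15 and Lmnb1. They were chosen by symbol, and each matched 1 of the 31053 genes in the count tables. Their levels were followed in 6 single-cell RNA-seq libraries of inguinal white adipose tissue (iWAT), the subcutaneous depot in which beige adipocytes arise in the cold. The libraries held stromal vascular cells, the non-adipocyte fraction of fat, sorted to remove CD45+ immune cells, from C57BL/6 male mice that were young (9 weeks) or aged (57 weeks). All mice were first acclimated to 30 °C. TN mice then stayed at 30 °C, 3D mice spent their last 3 days at 6 °C and 14D mice spent 14 days at 6 °C. There was 1 library for each age and temperature, so each age had 3 libraries at different temperatures. The number of mice behind a library is not given in the sources used here, and the mice came from the National Institute on Aging (C57BL/6JN) or Jackson Laboratories (C57BL/6J), without a statement of which supplied which age. The p-values below therefore measure the spread between libraries.

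Senescence is a lasting exit from the cell cycle in which damaged or old cells stay alive and secrete signalling proteins. Its brakes are inhibitors of the cyclin-dependent kinases (CDKs): the INK4 family (Cdkn2a, Cdkn2b, Cdkn2c), which binds CDK4 and CDK6, and the CIP/KIP family (Cdkn1a, Cdkn1b), which binds a wider set of CDK complexes. The transcription factor p53 (Trp53) switches on Cdkn1a, which encodes p21, after DNA damage, and also switches on Mdm2, the ligase that degrades p53. Gdf15 encodes a secreted stress hormone that lowers food intake, and loss of lamin B1 (Lmnb1) from the nuclear lamina is a common sign of senescent cells.

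In brief, the aged fibroblasts held more Cdkn2a and Cdkn2c than the young ones, more Cdkn1a in the Icam1+ and Cd142+ classes and more Gdf15 in the Dpp4+ class. Cdkn1a just missed the threshold in the Dpp4+ class, and its age effect did not differ past the threshold between fibroblast classes. It was also higher in aged endothelial cells and in aged smooth muscle cells or pericytes, where no alternative fit was run. The p53 gene itself was slightly higher with age in the Dpp4+ class, and its target Mdm2 was not past the threshold in any class. In the cold Gdf15 was higher in Dpp4+ and Icam1+ fibroblasts of both ages, with Trp53 higher by less. Lmnb1 did not fall past the threshold in any class of aged cells. Cdkn2a was carried by a very small number of cells.

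Total UMI counts (unique molecules) ran from 52068837 to 88508349 per library, and 57326 cells passed the filters. Marker genes gated 46683 of these as fibroblasts, the adipocyte stem and progenitor cells: 19384 Dpp4+ fibroblasts (the multipotent interstitial progenitors), 19903 Icam1+ preadipocytes, 2160 Cd142+ fibroblasts and 5236 that met none of these. Another 3483 cells were endothelial and 743 were smooth muscle cells or pericytes (SMC/pericyte). The gates also held 105 Schwann and 211 immune cells, in which no edgeR test was run. Among the 10 leading genes of a class, own markers numbered 3 in Dpp4+, 2 in Icam1+ and 6 in Cd142+ fibroblasts. They numbered 4 in endothelial and 5 in SMC/pericyte cells, and no marker of another class was among these leading genes. The fibroblasts together had 2 Dpp4+ markers and no pan-fibroblast marker among their 10 leading genes. Cells were gated on these same lists, so the counts are no separate check of the classes. Of the fibroblasts, 11.5% lay within 0.05 of a gate limit. Pairs of libraries shared 18 to 35 cell barcodes. The aged 14D library stood apart, with 3970 kept cells under the gate's minimum of 2000 UMIs against 319 in the aged TN library and none in the others. Levels below are CPM, the UMIs of a gene per 1000000 UMIs of its class in a library, scaled by TMM factors, which adjust for composition, except where raw CPM is named. One UMI stands for 1 captured transcript 3' end, so no length was divided out. These are shares of the RNA of the cells gated, and a change in which cells were caught cannot be told apart from a change per cell.

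p53 binds DNA as paired decamers, and the promoters of the members show where such letters lie close to a start site. RefSeq promoter windows (GRCm38.p6, 250 bases before to 50 bases after the start) were found for 8 of the 9 genes, 12 windows in all. The 10-base p53 consensus decamer, searched on 1 strand because its letters are the same on both, lay in 3 of these windows, of Cdkn1a, Trp53 and Mdm2, against 8.36% of all 32851 windows. The 4 matches are shown because Cdkn1a and Mdm2 are the classic p53 targets among the members, with the decamer in capitals. The first is 73 bases and the second 51 bases before the start of the Cdkn1a window that holds them, the third 75 bases before the Trp53 start and the fourth 186 bases before the Mdm2 start.
Cdkn1a, chr17:29090896-29090925, plus strand: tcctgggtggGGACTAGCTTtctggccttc
Cdkn1a, chr17:29090918-29090947, plus strand: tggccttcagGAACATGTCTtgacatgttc
Trp53, chr11:69580274-69580303, plus strand: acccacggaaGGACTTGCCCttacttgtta
Mdm2, chr10:117710925-117710954, minus strand: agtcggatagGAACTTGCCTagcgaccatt
A match describes letters in a window and not binding. Of the 3 genes with a match, Cdkn1a and Trp53 had higher levels with age in at least 1 fibroblast class, and Mdm2 did not pass the test in any class (below). Of the genes with a window and no match, Cdkn2a, Cdkn2c and Gdf15 were also higher in at least 1 fibroblast class. Cdkn2b was higher in fibroblasts together, and Cdkn1b did not pass in any class. A link between a match and age was not tested.

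Cdkn2a encodes p16Ink4a and p19Arf, which use different first exons and overlapping reading frames. In GRCm38 it lies on chromosome 4, from 89274471 to 89294653 on the minus strand, next to Cdkn2b (89306299 to 89311039), and the 3' ends of its 2 annotated coding transcripts are 70 bp apart. UMIs from 3' ends therefore do not separate p16Ink4a from p19Arf. The young fibroblasts held 14 (TN), 7 (3D) and 9 (14D) Cdkn2a UMIs. The aged fibroblasts held 117, 91 and 58, so every aged library was above every young one. The levels were 0.134 ± 0.049 against 1.71 ± 0.456 CPM (mean ± SD, n = 3 libraries per age), a log2 fold change of 3.66 (SE 0.23, edgeR adjusted p = 0.00062), and the call held under all 16 alternatives, where the log2 fold change ran from 2.81 to 3.74. The lowest value was with every cell thinned to 2000 UMIs.

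These UMIs came from few cells. A Cdkn2a UMI was found in 25 of 25036 young fibroblasts (0.0999%) and in 129 of 21647 aged ones (0.596%), a ratio of 5.97 with an exact 95% interval of 3.87 to 9.56 that covers counting error only. The ratio of cells is smaller than the ratio of UMIs, and the carrying cells held 1.2 UMIs each in young and 2.06 in aged mice. In aged mice 54 of the 129 carrying cells had 2 or more, and 1 cell held 12. With cells thinned to an equal depth of 2000 UMIs the share was 0.048% ± 0.011 in young and 0.285% ± 0.079 in aged libraries. The aged shares were all above the young ones, with an exact permutation p of 0.1, the smallest that 3 against 3 allows. Among endothelial cells 1 of 1423 young and 3 of 2060 aged cells had a UMI, at a median depth of 3228 to 4098.5 UMIs per cell against 6787 to 10196 in fibroblasts. Among SMC/pericyte cells it was 1 of 296 young and 2 of 447 aged cells. Among the few immune cells left after sorting it was 2 of 109 young and 5 of 102 aged cells, higher shares than in fibroblasts. Carrying cells were therefore not confined to fibroblasts.

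**Figure D1:**
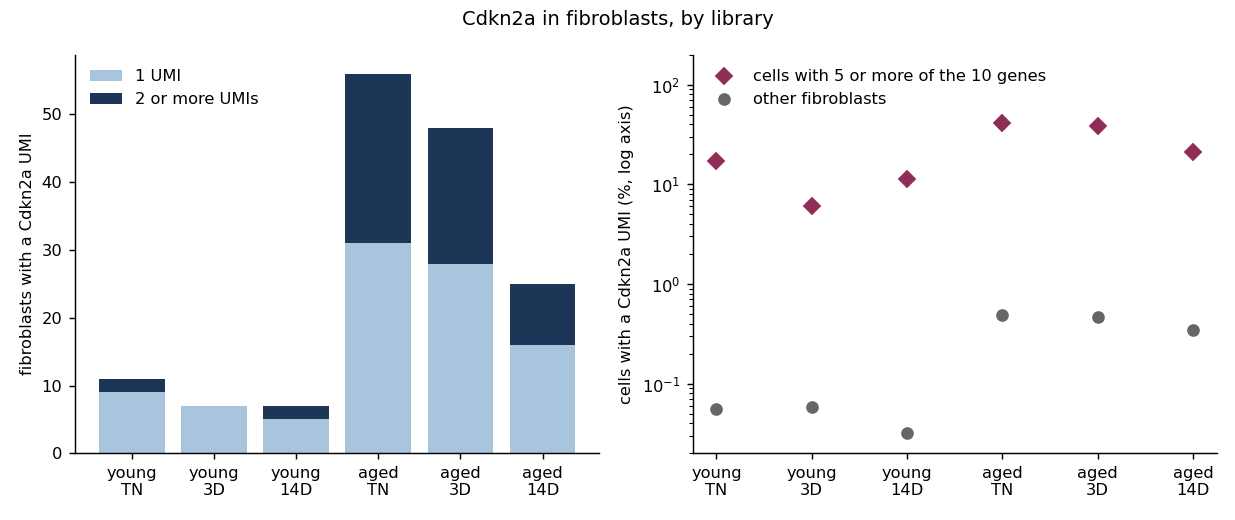
Left, number of fibroblasts with a Cdkn2a UMI in each library, split into cells with 1 and with 2 or more UMIs; the 3 aged libraries hold 56, 48 and 25 such cells and the 3 young ones 11, 7 and 7. Right, percent of cells with a Cdkn2a UMI (log axis) among fibroblasts with 5 or more of 10 genes that lead in Cdkn2a-carrying cells (diamonds) and among all other fibroblasts (circles); diamonds lie above circles in every library, and the aged points lie above the young ones in both sets.

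Carrying cells were found in each fibroblast class and were densest among the fibroblasts outside the 3 classes. In Dpp4+ fibroblasts the young libraries held 1, 2 and 3 Cdkn2a UMIs and the aged ones 27, 20 and 26 (log2 fold change 4.37, SE 0.45, edgeR adjusted p = 5.8e-05). The young counts are at or under the floor of 3 per library, and the ratio of carrying cells there, 29 of 7730 against 5 of 11654, was 8.74 with an exact interval of 3.35 to 28.9. In Icam1+ preadipocytes the young libraries held 7, 3 and 3 UMIs and the aged ones 63, 29 and 6 (log2 fold change 2.97, SE 0.39, edgeR adjusted p = 0.0011). Among the fibroblasts outside the 3 classes, 39 of 2793 aged cells carried a UMI against 7 of 2443 young ones. The aged share there was 1.4%, against 0.375% in Dpp4+, 0.547% in Icam1+ and 0.563% in Cd142+ fibroblasts. In young mice it was 0.287%, against 0.0429%, 0.114% and 0.157%. Cd142+ fibroblasts had 2 and 15 UMIs in young and aged mice, too few for the test. Cdkn2b UMIs were denser in the carrying cells, at a raw CPM of 13.6 against 1.13 in the other aged fibroblasts, which rests on 13 UMIs.

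The genes that set the carrying cells apart were read from the aged TN and 3D libraries and then looked up in libraries that had no part in the choice. The 10 with the largest ratio to other fibroblasts were Spp1, Apod, Thbs4, Dlk1, Matn2, Gpc3, Tenm2, Gfra1, Vwa1 and Pla2g7, a list chosen after its values were seen and given without a test. Apod encodes the lipid carrier apolipoprotein D, Spp1 osteopontin and Gpc3 the cell surface proteoglycan glypican 3. The authors also named Spp1+ fibroblasts, for which no class was gated here. In the aged 14D library Apod was at a raw CPM of 8472 in the 25 carrying cells and at 361 in the other 6019 fibroblasts, and 9 of the 10 genes were higher in the carrying cells there, Pla2g7 being at 0. In the 3 young libraries Apod was at 10060 in the 25 carrying cells and at 373.4 in the others, and all 10 genes were higher in the carrying cells.

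With libraries pooled, fibroblasts with UMIs of 5 or more of these 10 genes were about as common at both ages, 109 of 25036 young (0.435%) and 94 of 21647 aged cells (0.434%). By library the shares differed, at 0.573%, 0.385% and 0.376% in young TN, 3D and 14D and 0.77%, 0.244% and 0.314% in aged. The aged share was thus higher at TN and lower at 3D and 14D. A Cdkn2a UMI was found in 13 of the 109 young cells (11.9%) and in 34 of the 94 aged ones (36.2%). Outside them it was found in 12 of 24927 young cells (0.0481%) and 95 of 21553 aged ones (0.441%). The aged share was the higher one both inside and outside this small set of cells, but 2 of the 3 aged libraries had served to choose the genes. By library, 17.1%, 6.06% and 11.4% of the young TN, 3D and 14D cells of the set carried Cdkn2a, and 40.7%, 38.1% and 21.1% of the aged ones. The cells of the set were shallower than other fibroblasts in every library, with medians of 3624 to 5563 against 6805 to 10222.5 UMIs per cell. Cdkn2b was at a raw CPM of 34.6 in the young and 62.3 in the aged cells of the set, against 0.452 and 1.03 in the other fibroblasts.

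Cdkn2b, which encodes p15Ink4b, was at 0.551 ± 0.119 CPM in young and 1.2 ± 0.486 in aged fibroblasts, from 51, 37 and 35 UMIs in the young TN, 3D and 14D libraries and 92, 59 and 36 in the aged ones. The log2 fold change was 1.09 (SE 0.20, edgeR adjusted p = 0.02). The call was lost when any 1 library was left out (adjusted p from 0.053 to 0.079) and with cells thinned to 2000 UMIs, where the log2 fold change was 0.32. Within the Dpp4+ and Icam1+ classes it was not past the threshold (edgeR adjusted p = 0.091 and 0.068), and in Dpp4+ fibroblasts it passed at 1.64 without the young 3D or the aged 3D library.

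Cdkn2c, which encodes p18Ink4c (chromosome 4, 109660876 to 109667189, minus strand), rose with age in all 3 fibroblast classes and from a higher base. In Icam1+ preadipocytes the young TN, 3D and 14D libraries were at 17.3, 14 and 13.6 CPM and the aged ones at 35.4, 32.8 and 21.9. The ages did not overlap, and the aged 14D library was the lowest of the aged ones. The log2 fold change was 1.00 (SE 0.10, edgeR adjusted p = 0.00026), and the call held under all 16 alternatives. It was 0.75 (SE 0.10) in Dpp4+ fibroblasts and 1.06 (SE 0.19) in Cd142+ fibroblasts. The Cd142+ call was lost under 3 of 16 alternatives, DESeq2 (adjusted p = 0.073), thinned cells (edgeR adjusted p = 0.17) and the stricter gate (edgeR adjusted p = 0.076). The difference between classes was not past the threshold for any pair (edgeR adjusted p from 0.35 to 1). At 2000 UMIs, 2.42% ± 0.308 of young and 4.56% ± 1.36 of aged fibroblasts had a Cdkn2c UMI. In endothelial cells the log2 fold change was 0.61 (SE 0.17, edgeR adjusted p = 0.1), which did not pass.

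**Figure D2:**
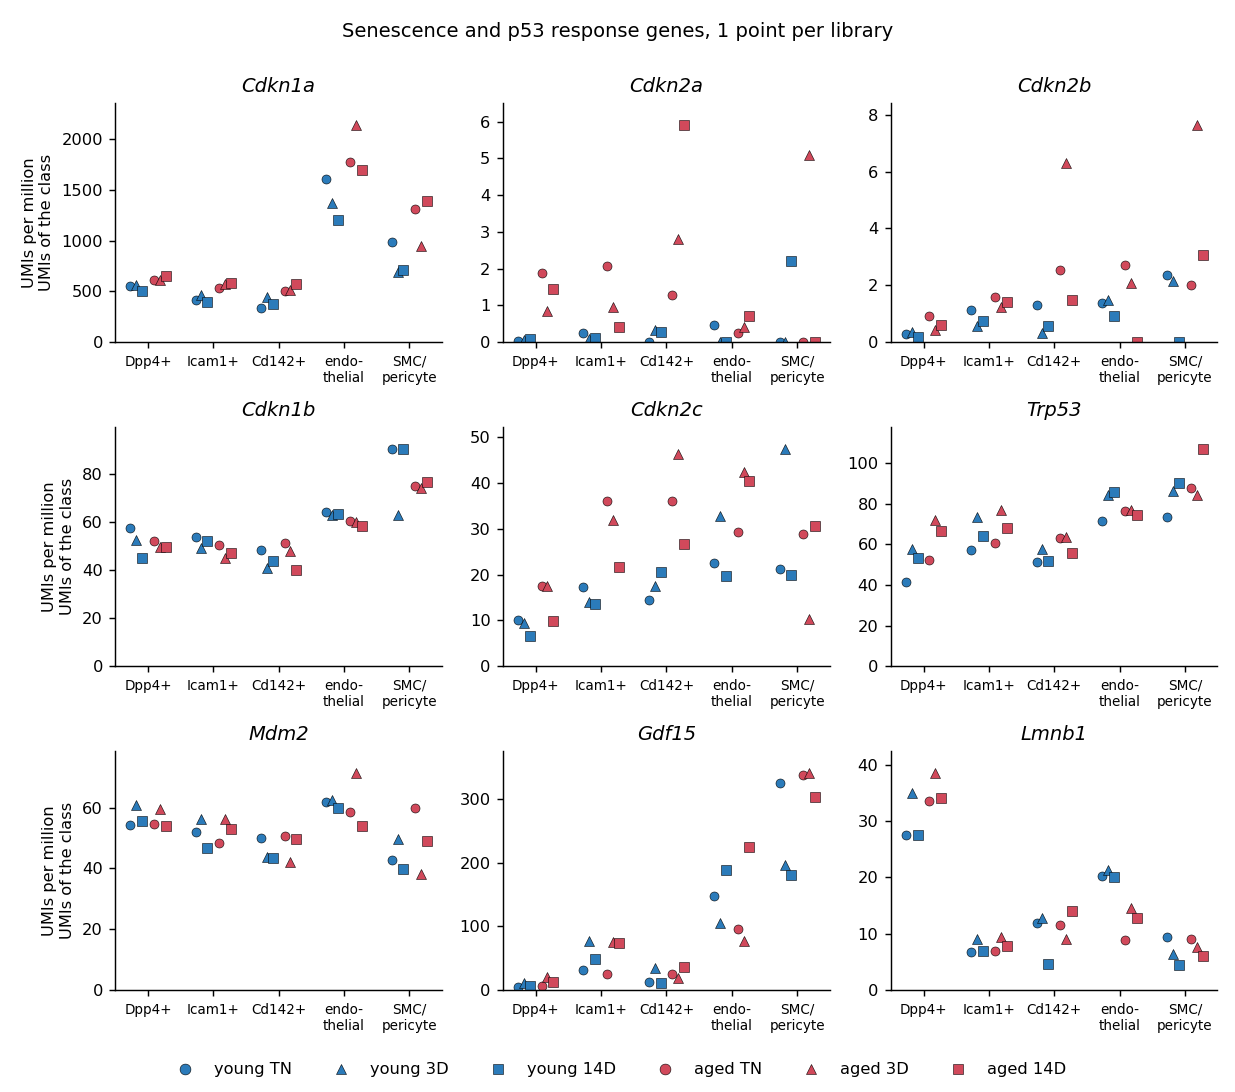
Raw CPM, before TMM scaling, of the 9 genes in 5 cell classes, 1 point per library; blue is young, red is aged, and circles, triangles and squares are TN, 3D and 14D. Cdkn2c is higher in each aged library than in all young ones in Icam1+ and Cd142+ fibroblasts, Cdkn1a is higher in endothelial and SMC/pericyte cells than in the fibroblast classes, and Lmnb1 is highest in Dpp4+ fibroblasts.

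Cdkn1a (chromosome 17, 29090976 to 29100727, plus strand) had the most UMIs of the members in every class. The annotation places AC167363.2 over it on the other strand. In fibroblasts together the young libraries were at 481.8 (TN), 507.2 (3D) and 463.3 (14D) CPM and the aged ones at 550.4, 594.9 and 619.5. The ages did not overlap, but the log2 fold change of 0.28 (SE 0.07) just missed the threshold with an edgeR adjusted p of 0.054, and it passed under 4 of 16 alternatives, among them DESeq2 (adjusted p = 0.0098) and the fits without the young TN or the aged TN library (edgeR adjusted p = 0.032 and 0.033). By class it was 0.43 (SE 0.08, adjusted p = 0.006) in Icam1+ preadipocytes and 0.46 (SE 0.10, adjusted p = 0.0092) in Cd142+ fibroblasts by edgeR, both past the threshold, and 0.19 (SE 0.06, edgeR adjusted p = 0.053) in Dpp4+ fibroblasts. The call in Cd142+ fibroblasts was lost under 5 of 16 alternatives, with DESeq2 (adjusted p = 0.051), without the temperature term (edgeR adjusted p = 0.077), with the stricter gate (edgeR adjusted p = 0.12) and without the young 14D or the aged 14D library (edgeR adjusted p = 0.058 and 0.051). The effect in Icam1+ preadipocytes exceeded that in Dpp4+ fibroblasts by 0.25 (SE 0.09), which did not pass across all genes (edgeR adjusted p = 0.22). At 2000 UMIs per cell, 52.7% ± 1.71 of young and 59.7% ± 3.58 of aged fibroblasts had a Cdkn1a UMI, and without thinning the shares were 84% ± 1.8 and 84.9% ± 1.11. Cdkn1b (chromosome 6, 134920401 to 134925513, plus strand), which encodes p27 and holds resting cells out of the cycle, stayed between 47.4 and 54.9 CPM in the 6 fibroblast sums, with a log2 fold change of -0.06 (SE 0.05, edgeR adjusted p = 0.48). It was not past the threshold for age in any class.

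Outside the fibroblasts, where no alternative was run, Cdkn1a was also the member that passed for age. Endothelial cells held 1566, 1365 and 1200 CPM in the young TN, 3D and 14D libraries and 1771, 2243 and 1739 in the aged ones, with no overlap. The log2 fold change was 0.48 (SE 0.10, edgeR adjusted p = 0.025). In SMC/pericyte cells it was 0.67 (SE 0.14, edgeR adjusted p = 0.037), with young libraries at 1054, 706.1 and 722.9 and aged ones at 1439, 1027 and 1484. There the aged 3D library fell below the young TN one, and these sums hold 80 to 261 cells. Immediate early genes, which rise when tissue is dissociated, moved with it in this class: of 14, 6 were higher and none lower in aged mice. The raw CPM summed over the 14 was 22247 to 28496 in young and 29439 to 39139 in aged libraries. In fibroblasts together the same list spanned 26928 to 29244 in young and 24191 to 35013 in aged libraries. The 5 red blood cell markers summed to a raw CPM of 4117 in the aged TN library of SMC/pericyte cells and to between 2.2 and 28.1 in the other 5. The part of either list in the Cdkn1a result was not tested.

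Trp53 (chromosome 11, 69580359 to 69591873, plus strand) was slightly higher in aged Dpp4+ fibroblasts. The young TN, 3D and 14D libraries were at 41.8, 56.8 and 55.4 CPM and the aged ones at 52.5, 71.5 and 65.6, so that each aged library exceeded the young one at its own temperature while the ages overlapped as a whole. The log2 fold change was 0.30 (SE 0.06, edgeR adjusted p = 0.0047), and the call held under 14 of 16 alternatives. In Icam1+ preadipocytes it was 0.09 (SE 0.06, edgeR adjusted p = 0.34). In fibroblasts together it was 0.20 with an edgeR adjusted p of 0.046, and passed under 5 of 16 alternatives. Leaving out any 1 library ended the call (adjusted p from 0.075 to 0.24). Mdm2 (chromosome 10, 117688875 to 117710758, minus strand) stayed between 49.9 and 58.3 CPM in the 6 fibroblast sums, with a log2 fold change of -0.02 (SE 0.05, edgeR adjusted p = 0.86), and it was not called for age or temperature in any class.

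Gdf15 (chromosome 8, 70629393 to 70632456, minus strand) differed widely between classes, from 4.2 CPM in young TN Dpp4+ fibroblasts to 371.9 in aged 3D SMC/pericyte cells. In Dpp4+ fibroblasts the young TN, 3D and 14D libraries were at 4.2, 10.5 and 6.89 and the aged ones at 6.58, 20.1 and 13.1. Each aged library was above the young one at its temperature, with a log2 fold change of 0.86 (SE 0.10, edgeR adjusted p = 0.00012). In Icam1+ preadipocytes the values were 30.9, 76.9 and 49.2 in young and 25.1, 77.2 and 73.9 in aged mice, with a log2 fold change of 0.10 (SE 0.13, edgeR adjusted p = 0.65). In Cd142+ fibroblasts it was 0.60 (SE 0.30, edgeR adjusted p = 0.3), and without the young 3D or the aged 3D library it was 1.39, past the threshold both times. For fibroblasts together it was 0.38 with an edgeR adjusted p of 0.045, a call that was lost without the young 3D, young 14D, aged 3D or aged 14D library (adjusted p from 0.055 to 0.13).

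Among the fibroblast, endothelial and SMC/pericyte classes, Lmnb1 was highest in Dpp4+ fibroblasts. Its young TN, 3D and 14D libraries were at 27.7, 34.2 and 28.5 CPM and its aged ones at 33.7, 38.2 and 33.7, a log2 fold change of 0.22 (SE 0.06, edgeR adjusted p = 0.03). The ages overlapped, and the call was lost with DESeq2 (adjusted p = 0.22), with thinned cells and without the young TN, young 3D, young 14D, aged TN or aged 14D library (adjusted p from 0.054 to 0.13). In endothelial cells Lmnb1 was at 19.8, 21.3 and 20 in young and 8.89, 15.2 and 13.1 in aged libraries, with no overlap, but the log2 fold change of -0.77 (SE 0.22) did not pass (edgeR adjusted p = 0.11).

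Counted together, 5 of 9 members were higher and none lower with age in fibroblasts together (Cdkn2a, Cdkn2b, Cdkn2c, Trp53 and Gdf15), where 11.7% of all genes tested passed. The count was 5 of 9 in Dpp4+ fibroblasts (Cdkn2a, Cdkn2c, Trp53, Gdf15 and Lmnb1; 17.9% of all genes), 3 of 9 in Icam1+ preadipocytes (Cdkn1a, Cdkn2a and Cdkn2c; 15.1%) and 2 of 7 in Cd142+ fibroblasts (Cdkn1a and Cdkn2c; 6.3%). In endothelial cells it was 1 of 7 (1.39%) and in SMC/pericyte cells 1 of 6 (0.756%). Cdkn2a and Cdkn2b fell below the count filter in the last 3 classes, and Lmnb1 also in SMC/pericyte cells. These counts rest on the temperature term: without it 1 member passed in each fibroblast class, Cdkn2a in fibroblasts together and in Dpp4+ fibroblasts and Cdkn2c in the other two. Of all genes, 348 of 14523 passed without that term in fibroblasts together and 718 of 12842 in Dpp4+ fibroblasts. In Icam1+ and Cd142+ fibroblasts 275 of 13156 and 230 of 10073 passed. Left without the aged 14D library, 2, 4, 3 and 1 members passed in fibroblasts together, Dpp4+, Icam1+ and Cd142+ fibroblasts. Of all genes, 688 of 14858, 1302 of 13188, 1559 of 13393 and 587 of 10474 then passed in the same classes.

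**Figure D3:**
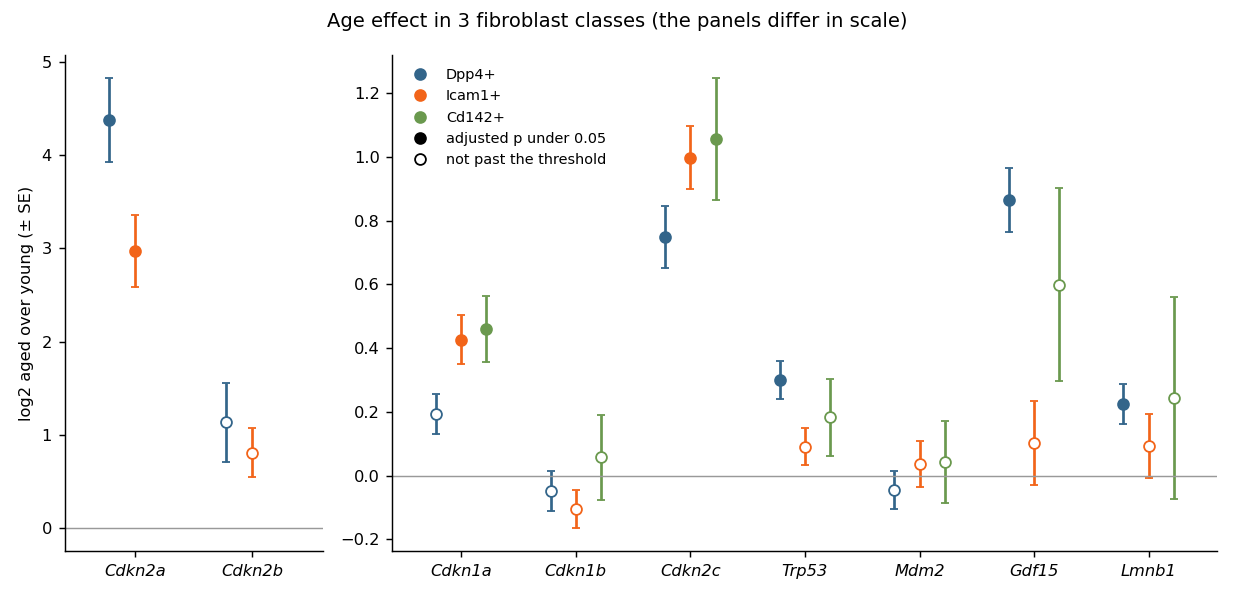
Log2 fold change of aged over young (± SE) for each gene in Dpp4+, Icam1+ and Cd142+ fibroblasts, from 6 libraries; filled points passed an adjusted p of 0.05. Cdkn2a (left panel, wider scale) reaches 4.37, Cdkn2c lies between 0.75 and 1.06, and Cdkn1b and Mdm2 lie near 0.

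Markers of other cells were checked in the same sums, all in raw CPM. Over the 8 adipocyte markers the summed raw CPM in fibroblasts was 3.69 to 6.05 in young and 8.41 to 16.2 in aged libraries, with at most 1 marker at 0 in a library. Over the 10 endothelial markers it was 10.6 to 13.2 in young and 13.6 to 37.7 in aged libraries, with none at 0. Over the 10 Schwann cell markers it was 31 to 31.5 in young and 36.9 to 39.1 in aged libraries, with 1 or 2 at 0. Immune, red blood cell and SMC/pericyte markers spanned overlapping ranges. Within Dpp4+ fibroblasts the same 3 lists did not overlap by age, at 3.23 to 6.24 against 6.96 to 11.3 for adipocyte, 9.73 to 13.6 against 15.4 to 21.8 for endothelial and 29.4 to 41.7 against 43.4 to 50.9 for Schwann cell markers. In Icam1+ preadipocytes the adipocyte markers did not overlap (2.48 to 4.42 against 7.26 to 14.4), and in Cd142+ fibroblasts the endothelial ones did not (11.7 to 13.6 against 16.6 to 56.2). In endothelial cells the Schwann cell markers did not overlap and were the lower in aged libraries (28.8 to 35.1 against 16.6 to 24.8). The part of these lists in the results was not tested.

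Age effects were then compared between fibroblast classes in a fit on both classes at once. Gdf15 alone of the 9 genes passed: its age effect was lower in Icam1+ preadipocytes than in Dpp4+ fibroblasts by 0.71 on the log2 scale (SE 0.14, edgeR adjusted p = 0.031), where 2.34% of all genes passed. It lost the call without the young TN, young 3D, young 14D, aged TN or aged 3D library (adjusted p from 0.056 to 0.16), with the difference between -0.74 and -0.57. No member passed between Cd142+ and Dpp4+ fibroblasts (1.56% of all genes) or between Cd142+ and Icam1+ fibroblasts (0.631%). At an unadjusted p under 0.05 stood 3 members in the first comparison (Cdkn1a, Trp53 and Gdf15), 1 in the second (Cdkn1a) and none in the third. The share of all genes at that unadjusted limit was not counted, so nothing is read from these 3 counts.

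Temperature was tested with age in the fit and both cold groups against TN at once. Gdf15 was higher in the cold in Dpp4+ and Icam1+ fibroblasts. In Icam1+ preadipocytes the log2 difference from TN was 1.46 at 3D and 1.11 at 14D (edgeR adjusted p = 0.0033), and in Dpp4+ fibroblasts it was 1.46 and 0.84 (edgeR adjusted p = 0.00024). In all 4 age and class combinations the 3D library was the highest and the TN library the lowest. Trp53 moved the same way by less: 0.45 at 3D and 0.37 at 14D in Dpp4+ fibroblasts (edgeR adjusted p = 0.0076) and 0.39 and 0.19 in Icam1+ preadipocytes (edgeR adjusted p = 0.028), the latter passing under 10 of 16 alternatives and lost without the young 3D, aged TN or aged 3D library (adjusted p from 0.075 to 0.23). Its TN library was the lowest at both ages in both classes. Cdkn2c differed in Dpp4+ fibroblasts, by -0.05 at 3D and -0.70 at 14D (edgeR adjusted p = 0.0085). That call was lost without the aged 14D library (adjusted p = 0.079).

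In fibroblasts together Gdf15 was the 1 member of 9 that passed for temperature, at 1.44 and 0.85 (edgeR adjusted p = 0.023; 1.73% of all genes passed), and the call was lost without the young 3D library (adjusted p = 0.083). The counts were 3 of 9 in Dpp4+ fibroblasts (7.87% of all genes), 2 of 9 in Icam1+ preadipocytes (6.77%), 0 of 7 in Cd142+ fibroblasts (1.55%), 1 of 7 in endothelial cells (1.29%) and 0 of 6 in SMC/pericyte cells (0.298%). No Cd142+ member had an unadjusted p under 0.05 by edgeR, where 1073 of 10381 genes did, and DESeq2 also called 0 members there. In SMC/pericyte cells 1 member, Cdkn1a, had one, as did 640 of 6383 genes. Cold did not change Cdkn1a past the threshold in any class, with log2 differences of 0.09 at 3D and 0.06 at 14D in fibroblasts together (edgeR adjusted p = 0.73). Without an age term no member passed in any fibroblast class.

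Gdf15 in endothelial cells followed another order, with 144.2, 105.2 and 187.6 CPM in the young TN, 3D and 14D libraries and 95.3, 80.2 and 229.7 in the aged ones. The 3D library was the lowest and the 14D library the highest at both ages, and the log2 differences from TN were -0.35 and 0.82 (edgeR adjusted p = 0.0072). No alternative was run for this call. SMC/pericyte cells, which held the most Gdf15, had 346.2, 201.4 and 185.2 in young and 371.6, 371.9 and 324.4 in aged libraries, a difference with temperature that did not pass (edgeR adjusted p = 0.56). At 2000 UMIs, 25.8% ± 5.8 of young and 32.5% ± 4.64 of aged SMC/pericyte cells had a Gdf15 UMI, against 3.25% ± 1.6 and 4.39% ± 1.57 of fibroblasts.

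**Figure D4:**
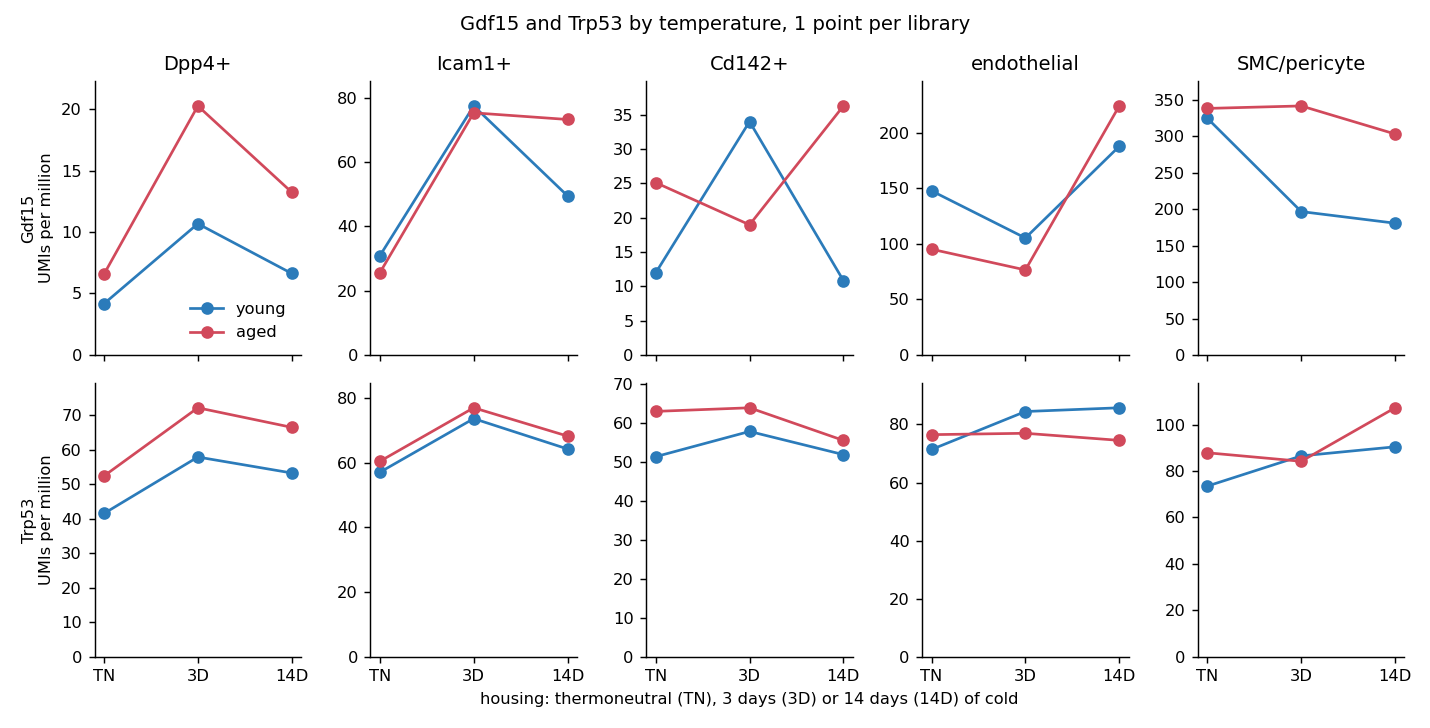
Gdf15 (top) and Trp53 (bottom) in raw CPM, before TMM scaling, by temperature in 5 cell classes, 1 point per library, young in blue and aged in red; the vertical scales differ between panels. Gdf15 is lowest at TN in Dpp4+ and Icam1+ fibroblasts of both ages and lowest at 3D in endothelial cells of both ages.

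The rest of the pathway was read from gene lists in fibroblasts together, with calls by edgeR over all genes tested and counts over the genes of a list that passed the count filter, to be read against the 11.7% of all genes called there. Of 5 other genes with a Cdkn symbol, not all of which encode CDK inhibitors, 2 were higher and Cdkn3 was lower. The higher ones were Cdkn1c (p57, 67.2 against 85.8 CPM, log2 fold change 0.35) and Cdkn2aip (0.27). Of 14 RB family, CDK and D cyclin genes 1 was higher, Cdk6 (log2 fold change 2.46, from 1.41 to 7.79 CPM), the kinase that INK4 proteins bind, and E2f1 and E2f3 were lower. Of 13 p53 regulators 2 were higher, Trp53bp2 (0.27) and Hipk2 (0.35). Of 30 p53 target genes 2 were higher, the BH3 protein gene Pmaip1 (1.23, from 5.89 to 13.7 CPM) and Plk3 (0.34), and Ddit4 was lower (-0.33). The share of p53 targets called was 10%, that of p53 regulators 15.4% and that of the stress response genes below 14.3%, near the share of all genes. The median log2 fold change of the p53 targets was -0.04, beside 0.00 over all genes tested. Cdkn3, Cdk6, E2f1, E2f3, Hipk2, Pmaip1 and Ddit4 lie under the 20 CPM set for naming genes and were named after their values were seen, as were Csf1, Fgf7, Mki67, Top2a, Bmi1, Cbx7, Ets1, Id1, Fgf21, Mthfd2 and Ret below.

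Secreted factors of senescent cells were higher for 6 and lower for 2 of 32, with Cxcl2 (log2 fold change 0.84), Tgfb1 (0.51), Cxcl12 (0.39) and Plau (0.39) among the higher and with Csf1 and Fgf7 the lower ones. In Dpp4+ fibroblasts the counts were 12 higher and 6 lower of 32, where 17.9% of all genes were called. Of 17 lamina and heterochromatin genes 3 were higher, Tmpo (0.43), Sun2 (0.34) and Hmgb2 (0.29), and none lower. Of 22 proliferation genes 6 were lower and none higher, Mki67 and Top2a by 1.85 and 1.79 on the log2 scale, from levels of 1.47 and 2.24 CPM in young mice. Of 15 regulators of the Cdkn2a locus 4 were higher, Bmi1, Cbx7, Ets1 and Id1, with Ets1 at 0.89. Of 14 integrated stress response genes 2 were lower, Fgf21 and Mthfd2, and of 6 genes of the Gdf15 receptor and the FOXO factors Foxo1 (-0.36) and the receptor gene Ret (-0.75) were lower. Of the 14 immediate early genes 2 were higher, Nr4a1 (0.44) and Hspa1a (0.57).

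Across the 18 sums of 3 fibroblast classes in 6 libraries, the genes most like each member by Pearson's r of log2 levels were listed as a description, since the sums share libraries and depth. For Cdkn1a these were Ythdc1 (0.95), Kdm3a (0.92) and Crip1 (0.92). For Gdf15 they were Slc11a2 (0.94), Fabp4 (0.93) and Stat3 (0.92), and for Cdkn2c Laptm4a (0.93), C1s1 (0.89) and Gt(ROSA)26Sor (0.89). Fabp4 is also a marker used to gate Icam1+ preadipocytes, so its r with Gdf15 carries the difference between the gated classes. For Trp53 they were Hnrnpf (0.90), Gatad2b (0.89) and Atp6v0b (0.88), for Mdm2 Thrap3 (0.89), Clic4 (0.86) and Senp6 (0.85), and for Cdkn1b Hif1a (0.84), Nudcd3 (0.79) and Rhobtb3 (0.77). Among the members, Trp53 and Gdf15 had the highest r, 0.81.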

How the data were processed

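The deposited files hold raw UMI counts per gene and cell, which the authors made with Cell Ranger and the mm10 genome, per the labels. Cells with over 200 genes and within 3 median absolute deviations of their library were kept. Classes were gated on scores of marker lists in cells with 2000 or more UMIs, and the gate limits were set after the scores were seen; top 5% cells by UMIs were left out as a stand-in for doublets in an alternative, and no doublet caller was run. Counts were summed per class and library and tested with edgeR 4.0.16 (R 4.3.3): TMM factors, the expression filter, the quasi-likelihood F test, Benjamini-Hochberg adjustment over all genes tested and a threshold of 0.05. Age was tested with a temperature term (2 residual degrees of freedom), temperature with an age term, and age by class with library as a block. DESeq2 1.42.0 was an alternative. Shares of cells used cells thinned to 2000 UMIs, an exact two-sided permutation test and exact Clopper-Pearson intervals. Intervals and the floor of 3 counts cover counting error only. Data were also simulated with the libraries' own depth, the same assumed spread for every gene and no temperature effect. There 88.4% of genes changed by 1 on the log2 scale were recovered in fibroblasts together. The share was 85% in Dpp4+, 86.2% in Icam1+ and 74.7% in Cd142+ fibroblasts, 74% in endothelial and 58% in SMC/pericyte cells. These shares depend on the assumed spread and do not give the share recovered in the real data.

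Named were all members in each class tested, up to 4 genes of a list past the threshold with the largest change among those at 20 CPM or more, and the 3 genes most like a member. The members and lists were chosen with earlier results of these data known.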

Additional observations from a re-analysis of the deposited data

Results flagged for a closer look

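The age effect on Gdf15 was tested between fibroblast classes: Icam1+ preadipocytes minus Dpp4+ fibroblasts came to -0.71 on the log2 scale (edgeR adjusted p = 0.031). The call was lost in 5 of 6 fits that left out 1 library and with the stricter gate (edgeR adjusted p = 0.12).

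The other results stand here because every library pair of 1 class moved one way and every pair of the other class the opposite way; these differences were not tested. Gdf15 at 3D against TN was higher at both ages in Dpp4+ (mean log2 difference 1.46) and Icam1+ fibroblasts (1.47) and lower at both ages in endothelial cells (-0.35), a difference between endothelial cells and either class of -1.82. At 14D it was lower at both ages in SMC/pericyte cells, by -1.40 from Dpp4+, -1.66 from Icam1+ and -1.37 from endothelial cells. Lmnb1 was lower with age at each temperature in endothelial cells and higher at each in Dpp4+ fibroblasts, a difference of -0.98. Cdkn2c at 3D against TN differed from Dpp4+ fibroblasts by 0.37 in Cd142+ fibroblasts and by 0.65 in endothelial cells, but the Dpp4+ values were -0.12 and -0.01, and the latter gives no direction.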

How the results depend on the processing

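Alternatives were run only in fibroblasts together and in the Dpp4+, Icam1+ and Cd142+ classes, and not in endothelial or SMC/pericyte cells. No called result in the fibroblasts changed direction under any of them, while the uncalled age effect on Gdf15 in Cd142+ fibroblasts ran from -0.20 to 1.39. Of the numbers of members called with age in fibroblasts together (5), Dpp4+ (5), Icam1+ (3) and Cd142+ fibroblasts (2), leaving out 1 library gave 2 to 4, 4 to 6, 3 to 3 and 1 to 3. For temperature, where 1, 3, 2 and 0 were called, it gave 0 to 4, 2 to 3, 1 to 4 and 0 to 1. Without the other factor in the design, the age counts were 1, 1, 1 and 1, and the temperature counts were 0 in fibroblasts together, Dpp4+ and Icam1+ fibroblasts. With cells thinned to 2000 UMIs the age counts were 3, 2 and 1 in fibroblasts together, Dpp4+ and Cd142+ fibroblasts, and the temperature count was 1 in Icam1+. The stricter gate gave age counts of 3 in Dpp4+ and 1 in Cd142+. DESeq2 gave an age count of 0 in Cd142+ and temperature counts of 3 in fibroblasts together and 1 in Icam1+. No filter on low counts gave an age count of 4 in Cd142+ and temperature counts of 3, 5 and 1 in fibroblasts together, Icam1+ and Cd142+. The gate on single genes gave a temperature count of 1 in Cd142+. The gate with no minimum of UMIs, an alternative added after seeing the data, gave an age count of 3 in fibroblasts together. Over all genes, the age counts of 1700, 2303, 1986 and 635 became 348, 718, 275 and 230 without the temperature term. Leaving out 1 library gave 561 (without young 3D) to 2163, 1302 (without aged 14D) to 2255, 1048 (without young 3D) to 2138 and 479 to 627 for age, and 3 (without young 3D) to 1880 (without young TN), 504 to 1559, 581 to 1838 and 28 to 375 for temperature, so the shares of all genes set beside the counts of members move too. In fibroblasts together the age count was also 584, 669 and 688 without aged 3D, young 14D and aged 14D. DESeq2 gave 1284, 1089 and 163 and thinned cells 1421, 1031 and 179 in Dpp4+, Icam1+ and Cd142+ fibroblasts, and the stricter gate 417 in Cd142+. The temperature counts of 258, 1034, 912 and 161 became 0 in each class without the age term (edgeR; before adjustment 1186, 988, 1033 and 347 met 0.05) and 1088, 2329, 2192 and 337 with no filter. DESeq2 gave 950, 637 and 48 in fibroblasts together, Dpp4+ and Cd142+, thinned cells 601 and 24 in Icam1+ and Cd142+, the gate on single genes 265 in Cd142+ and the gate with no minimum 119 in fibroblasts together. The cause of these moves was not tested.

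With 1 library per age and temperature, leaving out a library leaves 1 residual degree of freedom. Depth limits rare genes, and Cdkn2a and Cdkn2b had too few UMIs for a test in Cd142+, endothelial and SMC/pericyte cells. No paired analysis was possible because each group holds 1 library, with no second replicate number to pair on. Matching by temperature is already in the age test, and library is the block of the age by class fit.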

Other observations

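Cold moved other genes of these lists in ways not described above. In Dpp4+ fibroblasts, where 7.87% of all genes passed for temperature, 3 of 14 RB family, CDK and D cyclin genes passed for temperature and were lower at 3D and 14D, Ccnd1 by -1.15 and -0.67 on the log2 scale, Ccnd2 and E2f1. Of 28 p53 target genes tested there, 4 passed and were lower in the cold, Plk2 (-0.55 and -0.69), Ddit4 (-0.91 at 3D), Gadd45a and Trp53inp1. Of the 14 immediate early genes, which rise on dissociation, 4 were also lower there and none higher, Dusp1 (-0.54 and -0.77), Ier2 (-0.30 and -0.62), Fos (-0.20 and -0.48) and Egr1 (-0.20 and -0.45). Their part in the other lists was not tested. Igfbp3, a secreted binder of insulin-like growth factors, was higher in the cold in each fibroblast class, at 1.40 and 1.00 in Dpp4+, 1.81 and 1.30 in Icam1+ and 1.81 and 0.82 in Cd142+ fibroblasts. These genes were named after their values were seen.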
